A study of Danio rerio with 6 samples.

Results

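The 9 genes described here encode subunits of the enzymes that copy nuclear DNA. They comprise 4 subunits of DNA polymerase alpha-primase (pola1, pola2, prim1 and prim2), 3 of DNA polymerase delta (pold1, pold2 and pold3) and 2 of DNA polymerase epsilon (pole and pole2). They were chosen by gene symbol from the 32520 genes of the count table, and each symbol matched 1 Ensembl gene. RNA of zebrafish (Danio rerio) heads, taken 2 days after fertilization, was sequenced in 3 libraries from slbp1-/- mutants (allele name rw440 in the titles) and 3 from wildtype siblings. The labels give no strain, lesion, clutch or number of heads per library, so the p-values reflect the spread of these 6 libraries alone, and that spread may be technical. The product of the mutated gene, slbp in the annotation, recognises the stem-loop that ends replication-dependent histone mRNAs. Its own transcript (ENSDARG00000100558) was present at 180, 144 and 183 CPM (counts relative to the library's total, itself corrected by a TMM factor) in mutants and at 98.1, 104.4 and 87.2 CPM in siblings, which does not check the genotype.

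Polymerase alpha-primase starts every new DNA strand: primase lays down a short RNA primer and polymerase alpha extends it with DNA. Polymerase epsilon then carries on leading strand synthesis and polymerase delta makes most of the lagging strand, both with the sliding clamp PCNA. The genes for these enzymes are classical S phase genes, transcribed mainly in dividing cells. In the head of an embryo at this stage dividing progenitors lie beside neurons that have left the cell cycle.

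Total counts ran from 3421961 to 5395071 per library, and the 9 genes had between 51 and 1450 counts in each library. All 9 were therefore well above the floor of 3 counts, which lies between 0.519 and 0.776 CPM, and none passed the low-count filter through 1 group alone. Mutant replicate 3 had the lowest TMM factor, 0.788, and sibling replicate 1 the lowest total. The neuronal marker elavl3, a sign of the neural tissue of the head, was present in every library at 295 to 370 CPM in mutants and at 412 to 468 CPM in siblings.

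Transcripts of the replicative polymerases and primase were more abundant in mutant heads. With edgeR's quasi-likelihood test, 8 of 9 rose in mutants and 0 fell, against a background of 25.7% of 15561 tested genes called, 12.9% higher and 12.8% lower. Their median log2 fold change was 1.41, and the median of all tested genes was 0.00447. Of all tested genes, between 85.6% (pold3) and 97.2% (pole2) had a lower log2 fold change than the member concerned. The 3 mutant libraries lay above all 3 siblings for 8 members, as they did for 21.8% of tested genes. The exception in both counts was pold3. In bulk tissue a larger share of cells with these transcripts and more transcript per cell cannot be told apart.

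All 4 genes of polymerase alpha-primase rose. pola1 (ENSDARG00000045308), which encodes the catalytic polymerase subunit, had 287, 271 and 342 CPM in mutants and 85.6, 111 and 103 CPM in siblings. Every mutant library stood far above every sibling, at a log2 fold change of 1.58 ± 0.17 (SE; edgeR adjusted p = 4.53e-05). For pola2 (ENSDARG00000015070), the regulatory B subunit, the values were 149, 131 and 152 CPM in mutants and 44.2, 50.5 and 50.7 CPM in siblings. It varied least among the 9 genes, with a coefficient of variation of 7.95% in mutants and 7.59% in siblings, and rose by 1.57 ± 0.15 on the log2 scale (edgeR adjusted p = 1.86e-05).

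The primase genes rose with wider spread. prim1 (ENSDARG00000040163), the catalytic primase subunit, had 99.1, 104.9 and 134 CPM in mutants and 41.9, 58.6 and 39.1 CPM in siblings. The groups did not overlap, and the log2 fold change was 1.27 ± 0.19 (SE; edgeR adjusted p = 0.000536). prim2 (ENSDARG00000052721), the large primase subunit that passes the primer on to the polymerase, had 94.7, 83.5 and 139.6 CPM in mutants and 29.5, 51.4 and 38.4 CPM in siblings. Mutant replicate 3 was the high mutant library and sibling replicate 2 the high sibling, and the log2 fold change was 1.41 ± 0.24 (SE; edgeR adjusted p = 0.00120).

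Of polymerase delta, the genes of the catalytic subunit and of the B subunit rose, and pold3 was not called. pold1 (ENSDARG00000027689), which encodes the catalytic and proofreading subunit, had 234, 187 and 263 CPM in mutants and 87.7, 115 and 98.1 CPM in siblings. Its log2 fold change of 1.18 ± 0.18 (SE; edgeR adjusted p = 0.000500) was the smallest among the 8 genes that rose. pold2 (ENSDARG00000095046), the B subunit, had 81.1, 82.8 and 129.9 CPM in mutants and 26.7, 37.6 and 40.2 CPM in siblings. All mutants exceeded all siblings, with mutant replicate 3 apart from the other mutants, and the log2 fold change was 1.48 ± 0.22 (SE; edgeR adjusted p = 0.000486).

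pold3 was not called, and 1 sibling library stood apart from the others. This gene (ENSDARG00000076169) encodes a PCNA-binding subunit of polymerase delta, which in human and yeast cells also belongs to the translesion polymerase zeta, as the B subunit does. It had 84.8, 86.0 and 113.6 CPM in mutants and 41.4, 47.0 and 84.8 CPM in siblings, so that sibling replicate 3 reached the level of the lowest mutant while the other siblings lay well below. The log2 fold change was 0.71 ± 0.25 (SE; edgeR adjusted p = 0.0535). Without sibling replicate 3 it was 1.09 with an edgeR adjusted p of 0.00553. With all libraries pold3 was also called by DESeq2 (adjusted p = 0.0371), by limma-voom (0.0379) and without a low-count filter in edgeR (0.0365). In 9 of 14 alternative fits it stayed uncalled. Total counts as the only scaling gave 0.42 (edgeR adjusted p = 0.242), and upper quartile factors 0.66 (0.0754). Leaving out any other single library gave 0.51 to 0.77 (edgeR adjusted p from 0.0790 to 0.220). The gene order of another assembly, GRCz12tu, places pold3 over the sialidase gene neu3.1, and the strand setting of the counting is not given. The table names no neu3.1 but has 4 genes with the shared symbol NEU3, none above 4.56 CPM in any library.

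Both genes of polymerase epsilon rose. pole (ENSDARG00000058533), the catalytic subunit of the leading strand enzyme, had 164, 132 and 142 CPM in mutants and 44.2, 69.3 and 62.5 CPM in siblings. It was the gene for which mutant replicate 1, not replicate 3, was highest, along with a log2 fold change of 1.31 ± 0.19 (SE; edgeR adjusted p = 0.000342). pole2 (ENSDARG00000100028), the B subunit, had 57.4, 47.7 and 65.7 CPM in mutants and 13.2, 19.2 and 17.8 CPM in siblings. At 3.37-fold it had the largest change of the 9 genes, a log2 fold change of 1.75 ± 0.21 (SE; edgeR adjusted p = 8.97e-05).

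**Figure D1:**
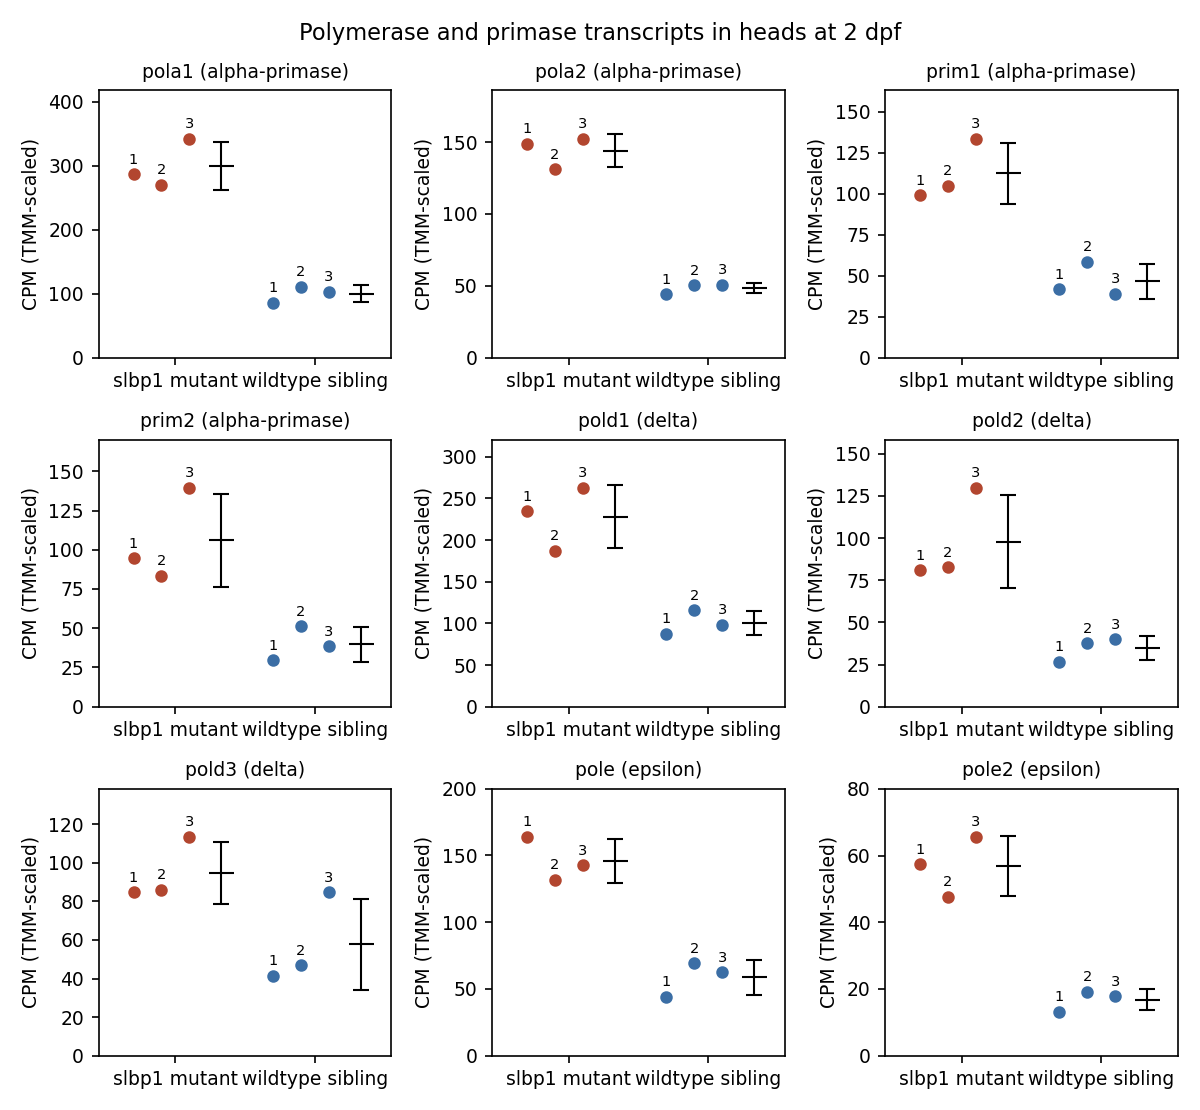
Level of each gene in CPM (TMM-scaled, axes from 0) in slbp1 mutant heads (left, red) and wildtype siblings (right, blue). Points are libraries, numbered by replicate, and bars are the mean and SD of 3. In 8 panels all mutant points lie above all sibling points. In the pold3 panel sibling 3, at 84.8 CPM, reaches the mutants.

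Summed by complex, the 4 alpha-primase genes had 662 ± 93.5 CPM in mutant libraries and 235 ± 35.3 CPM in sibling libraries (SD, n = 3), a ratio of 2.82. The 2 epsilon genes had 203 ± 21.5 CPM in mutants, against 75.4 ± 16.1 CPM in siblings, a ratio of 2.69. For the 3 delta genes the sums were 421 ± 77.2 CPM in mutants and 193 ± 34.2 CPM in siblings, a ratio of 2.18, with the sibling sum raised by pold3 in sibling replicate 3. For no complex did the sums of the groups overlap. Of single tested genes, 21.8% had all 3 mutant libraries above all 3 siblings. These sums are a description, because the genes were chosen with results of these data known. Gene lengths were not at hand, so levels are not compared between genes.

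The balance between subunits was compared within each library as the log2 ratio of 2 genes' counts, which does not depend on library scaling. Of 8 ratios tested by an exact two-sided permutation test, none could fall below p = 0.1 with 3 libraries a group, and the adjusted p ran from 0.4 to 0.8. In 2 of them the groups did not overlap. The pold1 to pola1 ratio was -0.29, -0.53 and -0.38 in mutants and 0.03, 0.06 and -0.07 in siblings, lower in mutants by a difference of -0.41 (exact permutation p = 0.1, adjusted p = 0.4). The pole2 to pole ratio was -1.51, -1.46 and -1.12 in mutants and -1.74, -1.85 and -1.80 in siblings, higher in mutants by 0.43 (exact permutation p = 0.1, adjusted p = 0.4). Mutant libraries thus had fewer pold1 counts per pola1 count than any sibling and more pole2 counts per pole count, with neither difference past the threshold.

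The other 6 ratios overlapped between the groups. The pola2 to pola1 ratio differed least, at -1.05 ± 0.11 in mutants and -1.04 ± 0.09 in siblings (SD, n = 3 each). The prim1 to prim2 ratio was 0.11 ± 0.20 in mutants and 0.24 ± 0.24 in siblings. The mean pola2 to pola1 and prim1 to prim2 ratios thus moved by no more than the spread between libraries. No primase gene was set against pola1 or pola2. The pold3 to pold1 ratio was -1.47, -1.12 and -1.21 in mutants and -1.08, -1.29 and -0.21 in siblings, with sibling replicate 3 alone far from the others. The difference of -0.40 in that ratio was -0.08 without that library. The pole to pola1 ratio differed by -0.25, pole to pold1 by 0.15 and pold2 to pold1 by 0.30.

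**Figure D2:**
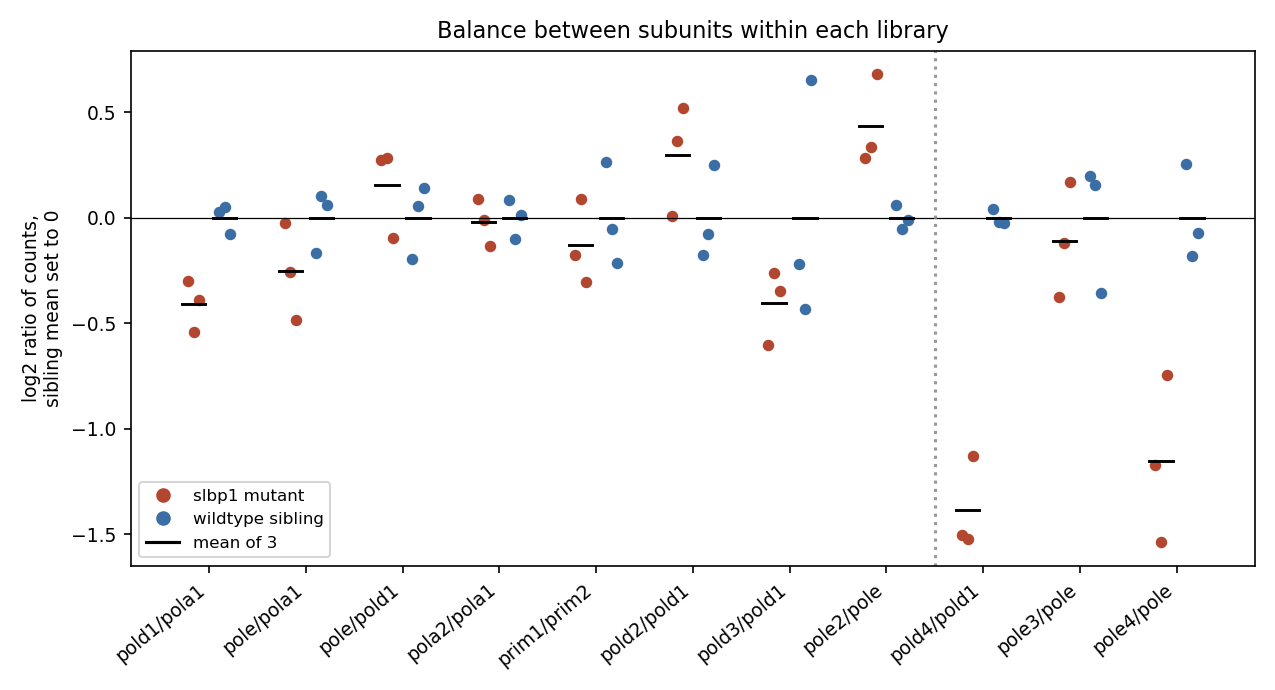
Log2 ratio of the counts of 2 subunit genes in each library, with the sibling mean of each ratio set to 0. Red points are slbp1 mutants, blue points wildtype siblings, and black lines are means of 3. Left of the dotted line are the 8 ratios among the 9 genes, which differ by -0.41 to 0.43. On its right are 3 ratios to smaller subunits, of which pold4 to pold1 and pole4 to pole lie lower in all mutants.

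Of 5 smaller subunits and partners of the same enzymes tested, 1 rose and 0 fell (median log2 fold change 0.22), a share near the background of 12.9% called higher. The gene that rose was pole3, which encodes a histone-fold subunit of polymerase epsilon, with 107, 102 and 135 CPM in mutants and 43.0, 65.3 and 41.2 CPM in siblings (log2 fold change 1.20 ± 0.20, SE; edgeR adjusted p = 0.00104). Its partner in the histone-fold pair, pole4, had 12.5, 7.76 and 14.6 CPM in mutants and 9.06, 10.5 and 10.2 CPM in siblings, and the groups overlapped (log2 fold change 0.22 ± 0.29, SE; edgeR adjusted p = 0.615). With total counts as the only scaling its sign turned, to -0.06. pold4, the smallest polymerase delta subunit, had 22.0, 17.3 and 32.1 CPM in mutants and 24.1, 30.4 and 25.8 CPM in siblings (log2 fold change -0.17 ± 0.24, SE; edgeR adjusted p = 0.646). The polymerase delta interacting proteins poldip2 and poldip3 had log2 fold changes of -0.13 and 0.48 (edgeR adjusted p = 0.708 and 0.0841). Without mutant replicate 2 poldip3 was called, at 0.63 (edgeR adjusted p = 0.0311).

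Ratios of the small subunits to the catalytic subunit were added after these values were seen. The pold4 to pold1 ratio was -3.41, -3.42 and -3.03 in mutants and -1.86, -1.92 and -1.92 in siblings, a difference of -1.38. The pole4 to pole ratio was -3.70, -4.07 and -3.27 in mutants and -2.27, -2.71 and -2.60 in siblings, a difference of -1.15. In both, every mutant lay below every sibling, and the exact permutation p was 0.1, the smallest possible (adjusted p = 0.15 over 3 ratios). The pole3 to pole ratio overlapped, with a difference of -0.11 (exact permutation p = 0.6).

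Genes for other proteins of the replication fork also rose. Of 29 tested genes for the clamp and its loaders, the fork scaffold, single-strand binding and Okazaki fragment maturation, 29 rose and 0 fell (median log2 fold change 1.44, range 0.76 to 2.10). The background over all tested genes was 12.9% called higher and 12.8% called lower. PCNA, the sliding clamp that holds polymerases delta and epsilon on DNA, had 1015, 891 and 1402 CPM in mutants and 251, 339 and 327 CPM in siblings. No mutant library came near a sibling, and the log2 fold change was 1.85 ± 0.23 (SE; edgeR adjusted p = 0.000122).

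All 11 clamp and clamp loader genes rose (median log2 fold change 1.42), among them the loader subunits rfc1 (1.20), rfc2 (1.51) and rfc5 (1.49). All 9 fork scaffold genes rose, with a median of 1.41. cdc45, which activates the replicative helicase, rose by 2.10 ± 0.26 (SE), and mcm10 by 1.74. wdhd1, which links polymerase alpha to the helicase in yeast and human cells, rose by 1.41, and gins1, part of the helicase complex, by 1.62. The 3 genes of the single-strand binding protein RPA rose by 1.21 (rpa1), 1.15 (rpa2) and 1.54 (rpa3). All 6 genes for Okazaki fragment maturation rose, led in p by the flap nuclease gene fen1 (1.71), then rnaseh2a (1.56) and dna2 (1.44), with rnaseh2b at 1.60 (edgeR adjusted p at most 0.0335 over the 29 genes).

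DNA polymerases with other tasks were split. Of 13 tested genes for translesion, repair and mitochondrial polymerases 5 rose and 0 fell, against the same background of 12.9% (median log2 fold change 0.62). The genes that rose include poln, which passed the low-count filter through the mutant libraries alone. Among the 7 translesion genes, primpol, which re-primes stalled forks, had 51.2, 51.1 and 56.9 CPM in mutants and 15.8, 19.9 and 20.9 CPM in siblings. Its log2 fold change of 1.48 ± 0.18 (SE; edgeR adjusted p = 0.000140) was close in size to those of the alpha-primase genes. polh, whose enzyme copies past ultraviolet lesions, rose by 0.71 ± 0.21 (edgeR adjusted p = 0.0273), a call lost with total counts as the only scaling (0.176) and without mutant replicate 1 (0.0797), mutant replicate 3 (0.0637), sibling replicate 1 (0.113) or sibling replicate 2 (0.0853). rev3l, the catalytic subunit of polymerase zeta, had 36.8, 45.2 and 44.2 CPM in mutants and 36.2, 37.8 and 43.1 CPM in siblings, with overlap (log2 fold change 0.11 ± 0.17, SE; edgeR adjusted p = 0.700). Its partners rev1 and mad2l2 and the genes poli and polk were not called, with log2 fold changes of -0.06, 0.41, -0.16 and 0.62. For mad2l2, polk and the mitochondrial gene polg2, all uncalled, every mutant library still lay above every sibling. In all, 8 of the 13 genes were separated in this way, against 21.8% of tested genes.

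Among repair polymerases, polq and poln rose. polq, whose enzyme joins broken ends by short homology, had 16.4, 21.4 and 13.7 CPM in mutants and 4.40, 5.90 and 9.0 CPM in siblings (log2 fold change 1.39 ± 0.31, SE; edgeR adjusted p = 0.00608). poln, of the same polymerase family, had 27, 21 and 17 counts in mutants and 0, 6 and 7 counts in siblings. It passed the low-count filter through the mutant libraries alone. Its log2 fold change of 2.55 ± 0.63 thus rests on few reads and is a description (edgeR adjusted p = 0.0105, and 0.0501 without mutant replicate 1). polb, the gap-filling enzyme of base excision repair, had 77.8, 54.7 and 58.8 CPM in mutants and 79.7, 73.6 and 72.2 CPM in siblings. The groups overlapped, at a log2 fold change of -0.24 ± 0.17 (SE; edgeR adjusted p = 0.337), and poll, of the same family, was at 0.0080. polm and dntt had too few counts to be tested. polm had 13, 8 and 28 counts in mutants and 1, 5 and 5 counts in siblings, and dntt had at most 10 in a library. Of the mitochondrial enzyme, the catalytic subunit gene polg rose by 0.97 ± 0.25 (edgeR adjusted p = 0.0120) and polg2 was not called at 0.86 ± 0.35 (0.0864). The polg call was lost with total counts as the only scaling (0.0628) and without sibling replicate 2 (0.0522).

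**Figure D3:**
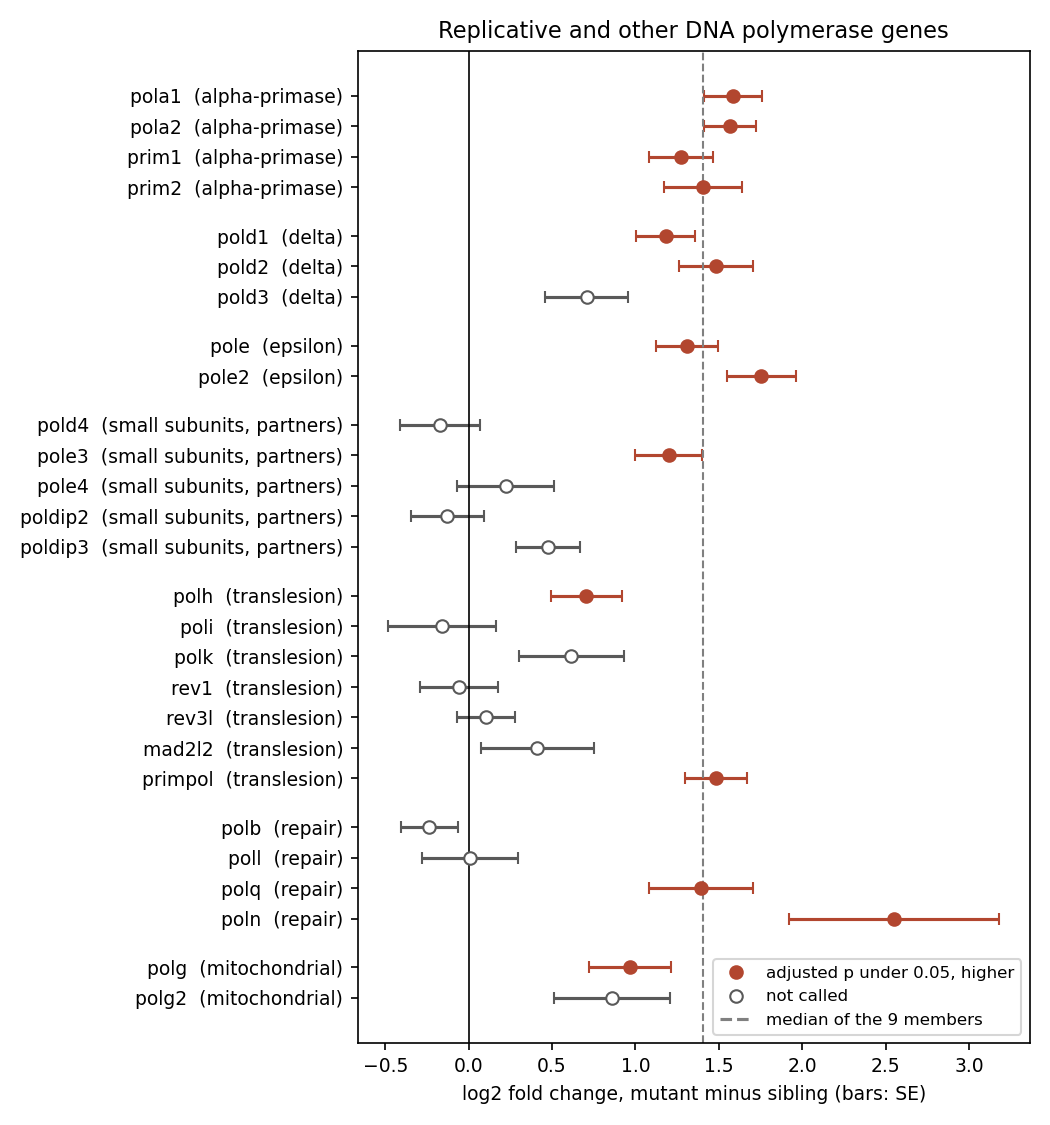
Log2 fold change, mutant minus sibling, of each tested DNA polymerase gene, with SE bars, ordered by enzyme. Filled red points had an adjusted p under 0.05 by edgeR's quasi-likelihood test and open points did not, and the dashed line is the median of the 9 replicative genes, 1.41. The 9 alpha-primase, delta and epsilon genes at the top lie between 0.71 and 1.75. Among the smaller subunits pold4, at -0.17, and pole4, at 0.22, lie near 0.

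Markers of dividing cells moved up, as these genes did, and markers of neurons moved down. Over all tested genes 12.9% were called higher and 12.8% lower. Of 13 genes tested for the proliferating cell list 12 rose and 0 fell (median log2 fold change 1.29). The gene not called shares the symbol rrm2 with 1 that rose (edgeR adjusted p = 0.244). The proliferating cell list summed to between 5971 and 7153 CPM in mutants and between 2153 and 3084 CPM in siblings. The proliferation marker mki67 rose by 1.18 ± 0.21 (SE; edgeR adjusted p = 0.00160). Of 10 genes tested for the postmitotic neuron list 6 fell and 0 rose, with a median of -1.02 and sums of 1216 to 2081 CPM in mutants and 2747 to 3381 CPM in siblings. All 3 muscle markers tested fell, with sums of 22.7 to 38.2 CPM in mutants and 68.0 to 119 CPM in siblings. None of 6 epidermis and none of 3 red blood cell markers tested was called in either direction (0 calls with edgeR, where 1 gene, cldni, had an unadjusted p under 0.05; 1 gene was called in 7 of 14 alternative fits, and 0 in the others, DESeq2 and limma-voom among them). The red blood cell list summed to between 259 and 1451 CPM in mutants and between 530 and 856 CPM in siblings. For the epidermis list the sums were 4359 to 9700 CPM in mutants and 5278 to 8898 CPM in siblings. With this spread a difference between the groups could be missed. No marker on these lists was at 0 in any library. The part of any such shift in the polymerase values was not tested.

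**Figure D4:**
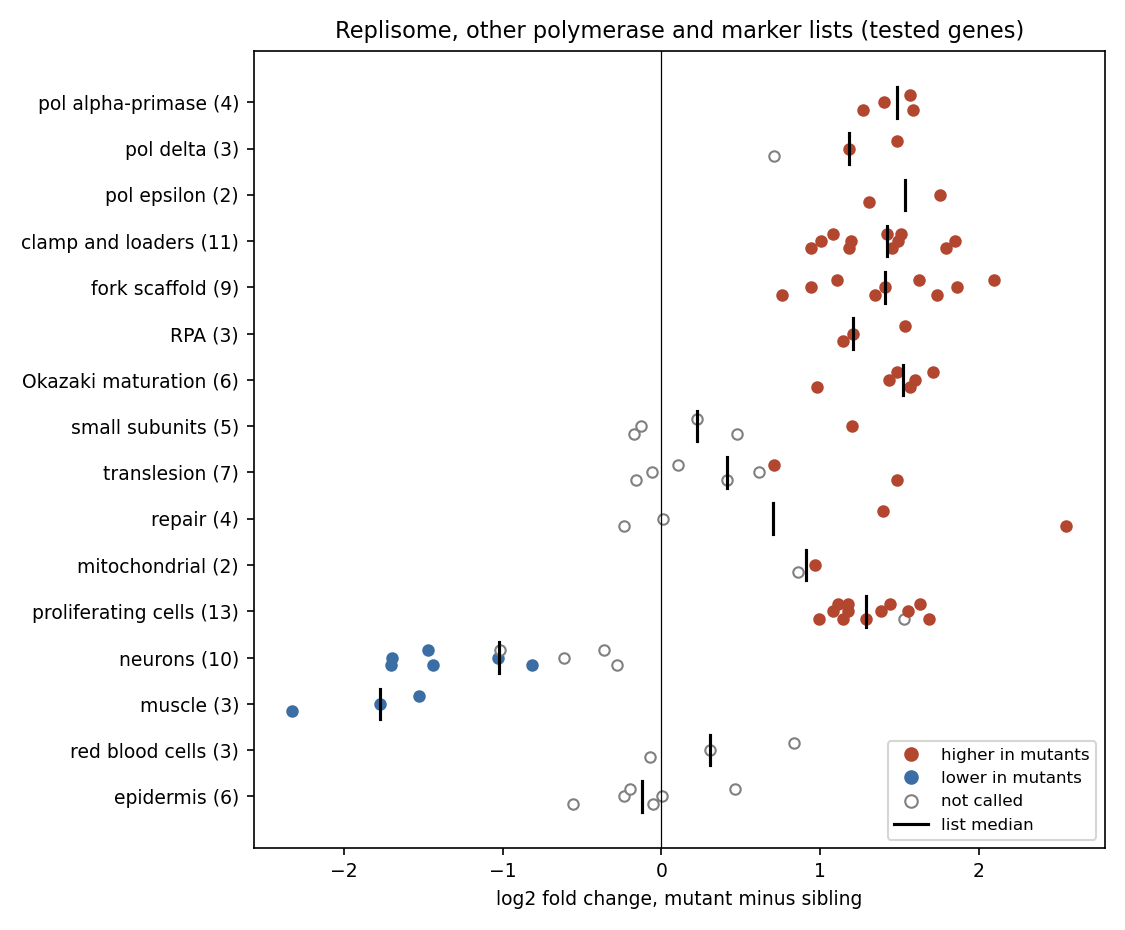
Log2 fold change, mutant minus sibling, of every tested gene in each list, with the number tested in brackets. Red points were called higher and blue points lower in mutants, open points were not called, and black bars are list medians. The 3 polymerase complexes, with medians of 1.18 to 1.53, lie in the same range as the clamp, fork, RPA and Okazaki lists.

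Deviations of the 9 genes from their group means had mostly 1 sign in some libraries and were mixed in others. In mutant replicate 3, 8 of 9 lay above their mutant mean on the log2 scale, by 0.23 on average, with pole as the exception, and in mutant replicate 2 all 9 lay below, by -0.18 on average. Mutant replicate 1 was split, with 4 above and 5 below. In sibling replicate 1 all 9 lay below their sibling mean, by -0.28 on average. Sibling replicate 2 had 8 above and 1 below, and sibling replicate 3 had 6 above and 3 below. Such deviations were not summarised for other genes, so they are not shown to be particular to these 9. pcna was likewise highest among mutants in replicate 3 (1402 CPM) and lowest among siblings in replicate 1 (251 CPM). mki67 was also lowest among siblings in replicate 1 (567 CPM), but in mutant replicate 3 it was the lowest mutant value (1383 CPM). Mutant replicate 3 is the library with the lowest TMM factor and sibling replicate 1 the one with the fewest counts, and the part of either in these deviations was not tested. The median log2 fold change of the 9 genes was 1.23 without mutant replicate 3, 1.23 without sibling replicate 1 and between 1.37 and 1.54 without any 1 of the others.

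Genes with the most similar pattern over the 6 libraries were sought among 7410 named genes outside the lists. The highest Pearson correlation with the mean standardised log2 CPM of the 9 genes was that of CKS1B (0.99964), which encodes a small partner of cyclin-dependent kinases. It had 69.3, 63.2 and 87.9 CPM in mutants and 17.3, 24.9 and 24.9 CPM in siblings. The next were tuba5, an alpha tubulin by its name (0.99937), CLYBL (0.99919), mgst3b (0.99904), the spindle assembly factor gene TPX2 (0.99898) and ARHGDIA (0.99895). With 6 libraries in 2 separate groups these correlations mostly restate the group difference, and they are given as a description.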

How the data were processed

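The values are raw counts per Ensembl gene as the authors deposited them, with 1 column for each of the 3 slbp1-/- and 3 wildtype sibling head libraries. HISAT2, featureCounts and the build GRCz11 are named, per the submitters' processing notes. Not given in the sources used here are versions, annotation release, strand setting, treatment of multiply mapped reads and poly(A) selection. Symbols came from a gene name table, and gene order from RefSeq's table for GRCz12tu, in which none of the 9 genes lies on the chromosome of slbp.

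Counts were filtered with filterByExpr, scaled by TMM and tested with edgeR 4.0.16 in R 4.3.3 (quasi-likelihood, robust, two-sided) over all 15561 genes, adjusted by Benjamini-Hochberg, and called under 0.05. SE was derived from the fold change and its F statistic. Subunit ratios used counts with 0.5 added and exact permutation tests in scipy 1.17.1. DESeq2 1.42.0, limma-voom (limma 3.58.1), other scalings and filters, each library left out and the replicate number as a block were alternatives. No replicates agreed within sampling noise (chi-square per degree of freedom from 6.34 to 17.6). On simulated data, 40% of 100 genes changed 2-fold and 82% of 100 changed 4-fold were recovered over 15014 genes. Of 143 calls there 21 were false, a larger share than the threshold of 0.05. Far fewer genes were changed in the simulation than were called in the data, so these rates may not carry over.

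The members and lists were chosen with earlier results of these data known. Named genes are the 9 members, pcna, all small subunits, partners and other polymerases, up to 4 genes of lowest p per replisome list, and the 6 most similar genes; mki67, elavl3 and cldni were named after their values were seen. Of the listed symbols clspn, donson, snap25a, stmn2a, stmn2b, syt1a, acta1b, mylpfa, tnnt3b, hbbe1.1 and hbbe2 had no match in the name table and are not analysed here. No sequences were used, so the planned promoter description was not made.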

Additional observations from a re-analysis of the deposited data

How the results depend on the processing

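Of 126 recomputed values of the 9 genes, none changed sign and 121 kept their side of the threshold; the remaining 5 were gains of the pold3 call. Between 8 and 9 members were called higher and 0 lower in every alternative run, and 27 to 30 of the 34 replisome genes, small subunits included. Of all genes tested in these runs, from 7.04% (total counts alone) to 16% (replicate block) were called higher. Total counts alone moved the median of all genes to -0.26, where the members' median was 1.12 (1.38 above it), with 1095 genes called higher and 3 other polymerases called. Under that scaling pole4 turned to -0.063, rev3l to -0.16 and poll to -0.28; poll, at 0.0080, also turned with upper quartile factors (-0.032), limma-voom (-0.0050) and the replicate block (-0.0018). Leaving out 1 library gave 2521 to 3763 called genes and 3 to 6 other polymerases, with fewer samples by construction. The smallest count of genes came without sibling replicate 1, and 3 other polymerases came without mutant replicate 1 or sibling replicate 2. These fits spanned 0 for the log2 fold changes of pold4 (-0.44 to 0.0061), poldip2 (-0.26 to 0.010), poli (-0.31 to 0.12), rev1 (-0.19 to 0.14) and poll (-0.14 to 0.21). They also spanned 0 for the log2 ratio differences of pola2 to pola1 (-0.073 to 0.038), prim1 to prim2 (-0.24 to 0.0038) and pole3 to pole (-0.29 to 0.024). To mki67 the same held for prim1 (-0.11 to 0.24), prim2 (-0.066 to 0.47), pold1 (-0.19 to 0.22) and pold2 (-0.0064 to 0.49). A replicate block gave 5059 called genes, and under it all 9 members were called, pold3 at 0.77 (edgeR adjusted p = 0.000645). The labels state no pairing, and same-numbered libraries deviated together at r = 0.24, 0.09 and 0.18, which was not read as pairing. The causes were not tested. The floor of 3 counts lies between 0.519 and 0.776 CPM. The low-count filter also left out genes above that floor in some libraries, polm at 1.82 to 6.61 CPM in mutants among them.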

Other observations

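The ratio of each gene's counts to those of mki67, chosen after the data were seen, set the polymerases beside the transcript of a marker of dividing cells. The pola1 to mki67 log2 ratio was -2.39, -2.69 and -2.01 in mutants and -2.72, -2.81 and -2.76 in siblings, a difference of 0.40. For pole2 it was -4.71, -5.20 and -4.39 in mutants and -5.41, -5.34 and -5.29 in siblings, a difference of 0.58. In both, all mutants lay above all siblings, and the exact permutation p was 0.1, the smallest possible (adjusted p = 0.45 over 9 ratios). The other 7 ratios overlapped between the groups, with differences from -0.41 (pold3) to 0.38 (pola2), and pold1 at -0.0062.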
